A study of Mus musculus with 6 samples.

Results

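The genes described are the nuclear subunits of respiratory complex I, chosen by name: every gene whose array symbol is Ndufa, Ndufb, Ndufc, Ndufs or Ndufv followed by a digit, plus Ndufab1, without assembly factors and pseudogenes. Of 30701 genes measured, 36 met this choice, of which 6 were core subunits and 30 were counted as accessory. They were measured in cultured mouse podocytes, the epithelial cells that form the outer layer of the kidney's filtration barrier, on 3 arrays of a line labelled as NCK1/2 knockout and on 3 arrays of a wildtype line. Nck1 and Nck2 are adaptor proteins that connect tyrosine-phosphorylated receptors to the actin cytoskeleton. Both lines were conditionally immortalized, which lets them grow under a permissive condition and differentiate when it is withdrawn, and each was kept on type I collagen for 10 days of differentiation. The submitters describe 3 independent replicates of each line, so the arrays measure the spread within a line, and the genotype cannot be told apart from other differences between the lines. The labels give neither the way the knockout was made nor the sex or strain of the source animals. Ndufa11 and Ndufb4 had only a probe set shared with another gene and are not counted, and Ndufb1 and Ndufb4c were not analysed here.

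Complex I, the NADH:ubiquinone oxidoreductase, takes electrons from NADH and passes them through flavin mononucleotide and a chain of iron-sulfur clusters to ubiquinone, and couples this to proton pumping across the inner mitochondrial membrane. Core subunits have counterparts in the bacterial enzyme and carry out catalysis. Accessory subunits surround them and serve in assembly and stability. The enzyme is built from modules: N, which oxidises NADH, and Q, which reduces quinone, form the arm in the matrix, and modules named for the mitochondrially encoded subunits ND1, ND2, ND4 and ND5 form the arm in the membrane. Inherited loss of complex I causes mitochondrial disease, most often of brain, heart and muscle.

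Values are log2 probe set intensities after RMA, so a difference of 1 is a doubling of intensity, and "passed" means a Benjamini-Hochberg adjusted p under 0.05 over all genes in limma's moderated test. Correlations across genes were 0.993 to 0.997 between arrays of a line and 0.978 to 0.985 between lines. Nck1 was at 8.13, 8.17 and 8.06 in knockout and 8.54, 8.74 and 8.62 in wildtype (log2 fold change -0.51, limma adjusted p = 0.00391). Nck2 was at 7.25, 7.27 and 7.19 in knockout and 7.37, 7.62 and 7.45 in wildtype (-0.24, limma adjusted p = 0.0941). The Nck2 means were at background level in knockout and wildtype, and where the probe sets lie relative to the deleted part is not known. The X-inactivation RNA Xist averaged 6.01 in knockout and 12.19 in wildtype, and the Y-linked Uty averaged 9.90 in knockout and 5.21 in wildtype. The Y-linked Kdm5d averaged 8.96 in knockout and 6.12 in wildtype, and the Y-linked Eif2s3y was at background level in both, at 4.50 in knockout and 4.49 in wildtype (limma adjusted p = 0.937). Xist, Uty and Kdm5d thus differed along with the genotype. Any difference in sex chromosomes cannot be told apart from it for any member, X-linked or autosomal. Of 8 measured podocyte markers none passed, at 3722 to 3930 units of summed intensity in knockout and 3604 to 3792 in wildtype. The brightest, Cd2ap, averaged 11.23 in knockout and 11.15 in wildtype and makes up the largest part of these sums. Of these 8, the defining markers Nphs1 and Wt1 and 2 others were at background level in knockout and wildtype.

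Complex I subunit genes were lower in the knockout line. Of the 36 members 23 fell, 1 rose and 12 did not pass, and 33 had a negative log2 fold change. Over all genes tested, 6.90% were called lower and 5.06% higher, and among the 11392 genes with a mean above every background probe set, 13.5% were called lower and 10.1% higher. The median log2 fold change was -0.33 over the members, against 0.01 over all genes tested. In 26 members all 3 knockout arrays lay below all 3 wildtype arrays, as they did in 14.8% of all genes. In 1 member all lay above, as they did in 12.6%. Among the 11392 genes above background, 3189 had all knockout arrays below and 2510 had all above. Falls ranged from -0.21 in Ndufb10 to -0.83 in Ndufs4, which puts the knockout intensity at 86.2% and 56.3% of the wildtype intensity. In bulk RNA, fewer cells of a type and less RNA per cell cannot be told apart.

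**Figure D1:**
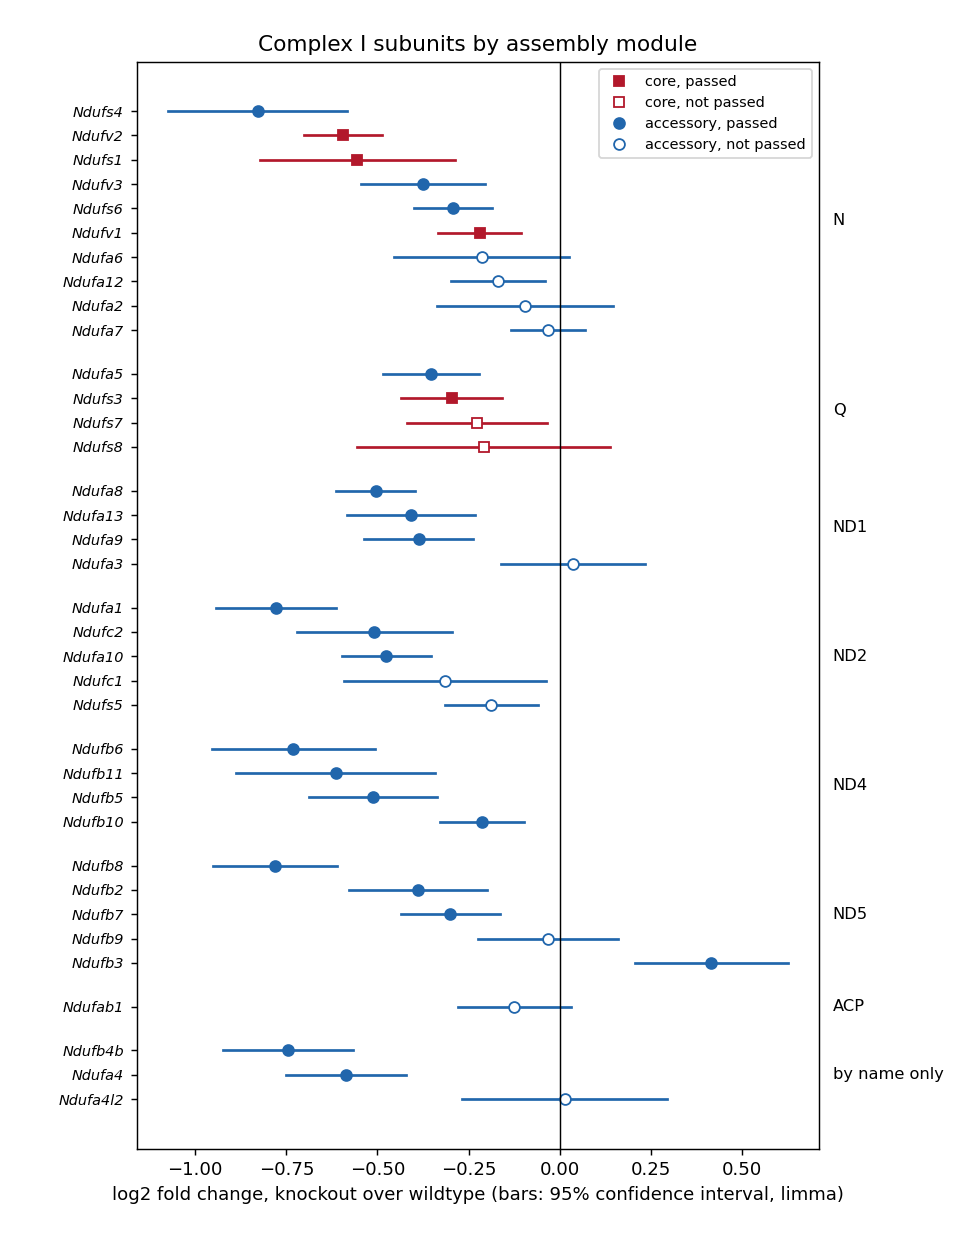
Log2 fold change of each of the 36 members, knockout over wildtype, with its 95% confidence interval from limma, by assembly module (ACP is the acyl carrier protein; the last group carries a complex I name only). Squares are core and circles accessory subunits, filled where the gene passed; all points but those of Ndufb3, Ndufa3 and Ndufa4l2 lie left of 0, and the core subunits lie within the range of the accessory ones.

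Markers of other kidney cell types moved beside these genes. Of 10 tubule markers, from an epithelium rich in mitochondria, 5 fell and 5 did not pass, and their summed intensity was 6740 to 7049 units in knockout and 17139 to 18332 in wildtype. The largest falls were in the water channel gene Aqp1 (log2 fold change -3.50) and the cadherin gene Cdh16 (-1.50), and 5 of the 10 had both means in the background range. Of 7 mesangial and smooth muscle markers 4 rose and 3 did not pass, at 10454 to 12027 units in knockout and 1979 to 2237 in wildtype, led by Acta2 (2.83) and Tagln (2.70). None of the 7 endothelial markers passed, and the means of all 7 were at background level in knockout and wildtype. Of 6 leukocyte markers, 5 of them within that range, Cd68 rose (0.57). The part of these markers in the fall of the complex I subunits was not tested.

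The shift was present on each knockout array. Relative to each gene's wildtype mean, the members' median deviation was -0.37, -0.34 and -0.28 on knockout arrays 1, 2 and 3, against -0.02, 0.04 and -0.02 on wildtype arrays 1, 2 and 3. Over all genes the same median lay between 0.004 and 0.009 on the knockout arrays. On wildtype arrays 1, 2 and 3 it was 0.028, -0.021 and -0.004. On knockout arrays 1 and 2, 33 and 34 of the 36 members lay below all wildtype arrays, and on knockout array 3, 26 did. For single arrays the same count over all genes was not made. Knockout array 3 was the highest of its group in 26 members, compared with 31.4% of all genes, and wildtype array 2 was the highest of its group in 28, compared with 34.2% of all genes. The median level of genes above background was also highest on these arrays. It was 8.86, 8.89 and 8.90 on knockout arrays 1, 2 and 3, and 8.85, 8.97 and 8.89 on wildtype arrays 1, 2 and 3. Over all genes tested, the median level was 7.22, 7.08 and 7.16 on wildtype arrays 1, 2 and 3, lowest on array 2. It was 7.15, 7.16 and 7.15 on knockout arrays 1, 2 and 3. The count of members that fell was 22 without knockout array 3, 16 without wildtype array 2, 15 without knockout array 1 or 2, 19 without wildtype array 1, and 14 without wildtype array 3, where the count over all genes was 2079 against 3669 on 6 arrays. With every array left out in turn, 12 members stayed among those that fell: Ndufs4, Ndufb8, Ndufa1, Ndufb4b, Ndufb6, Ndufv2, Ndufa4, Ndufb5, Ndufa8, Ndufa10, Ndufa5 and Ndufs6.

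**Figure D2:**
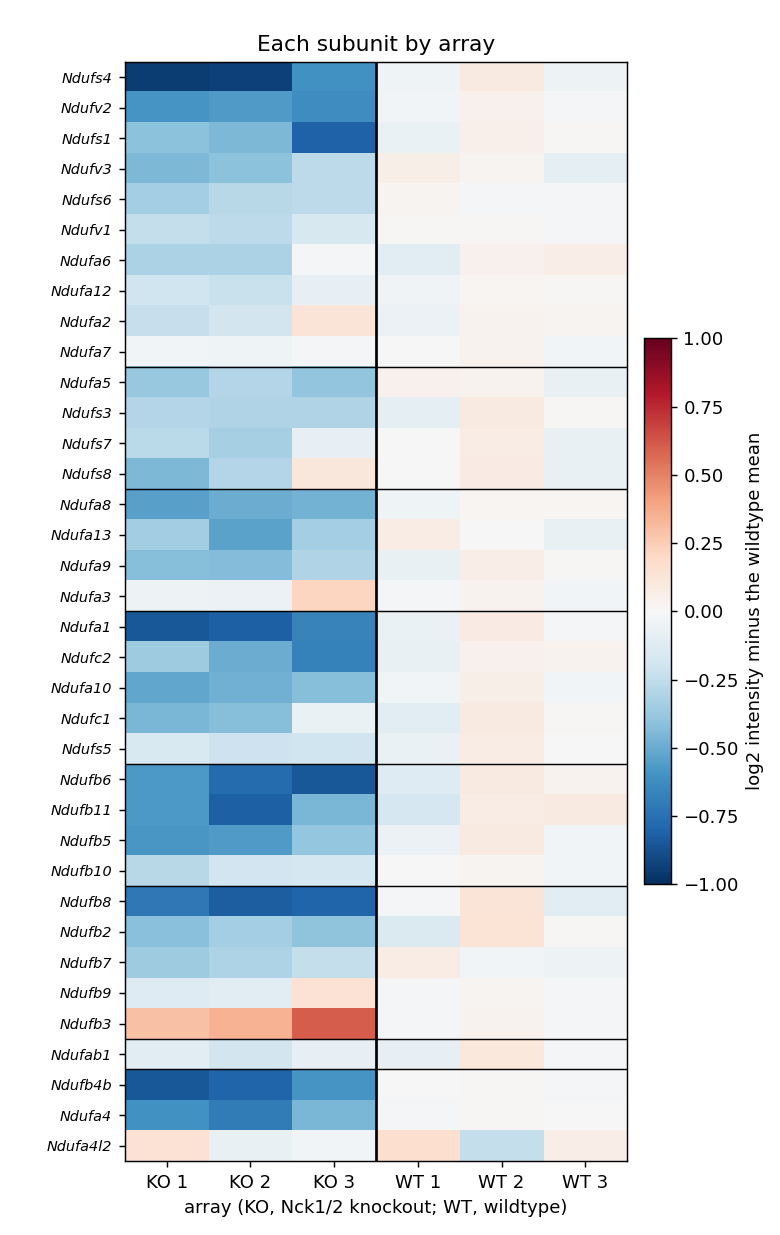
Log2 intensity of each member on each array minus that gene's mean on the wildtype arrays, with the knockout arrays (KO) left of the wildtype arrays (WT); lines separate the modules. Knockout columns are mostly blue (lower), with Ndufb3 red on all 3 and Ndufs8, Ndufa2, Ndufa3 and Ndufb9 pale red on knockout array 3 alone and Ndufa4l2 on knockout array 1 alone.

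The largest falls were in Ndufs4, Ndufb8 and Ndufa1, and the single rise was in Ndufb3. Ndufs4, which holds the N module to the rest of the enzyme and whose loss causes Leigh syndrome, was at 9.11, 9.12 and 9.44 in knockout and 10.01, 10.15 and 10.00 in wildtype. Its log2 fold change was -0.83 (SE 0.10, limma adjusted p = 0.00352), and the groups did not overlap. Ndufb8, a distal membrane subunit often used as a marker of assembled complex I, was at 8.17, 8.06 and 8.08 in knockout and 8.86, 9.01 and 8.78 in wildtype (-0.78, SE 0.07, limma adjusted p = 0.00104). Every knockout array lay below every wildtype array. Ndufa1, a small X-linked membrane subunit required for assembly, was at 8.51, 8.54 and 8.68 in knockout and 9.28, 9.43 and 9.34 in wildtype (-0.78, SE 0.07, limma adjusted p = 0.000893). Ndufb3, another distal membrane subunit, was at 9.52, 9.58 and 9.84 in knockout and 9.22, 9.26 and 9.21 in wildtype. Its log2 fold change was 0.42 (SE 0.09, limma adjusted p = 0.0273), with every knockout array above every wildtype array. The rise no longer passed without knockout array 2 (adjusted p = 0.0724) or without wildtype array 1, 2 or 3 (0.0905, 0.0783 and 0.114), while its size lay between 0.32 and 0.48 with each array left out.

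**Figure D3:**
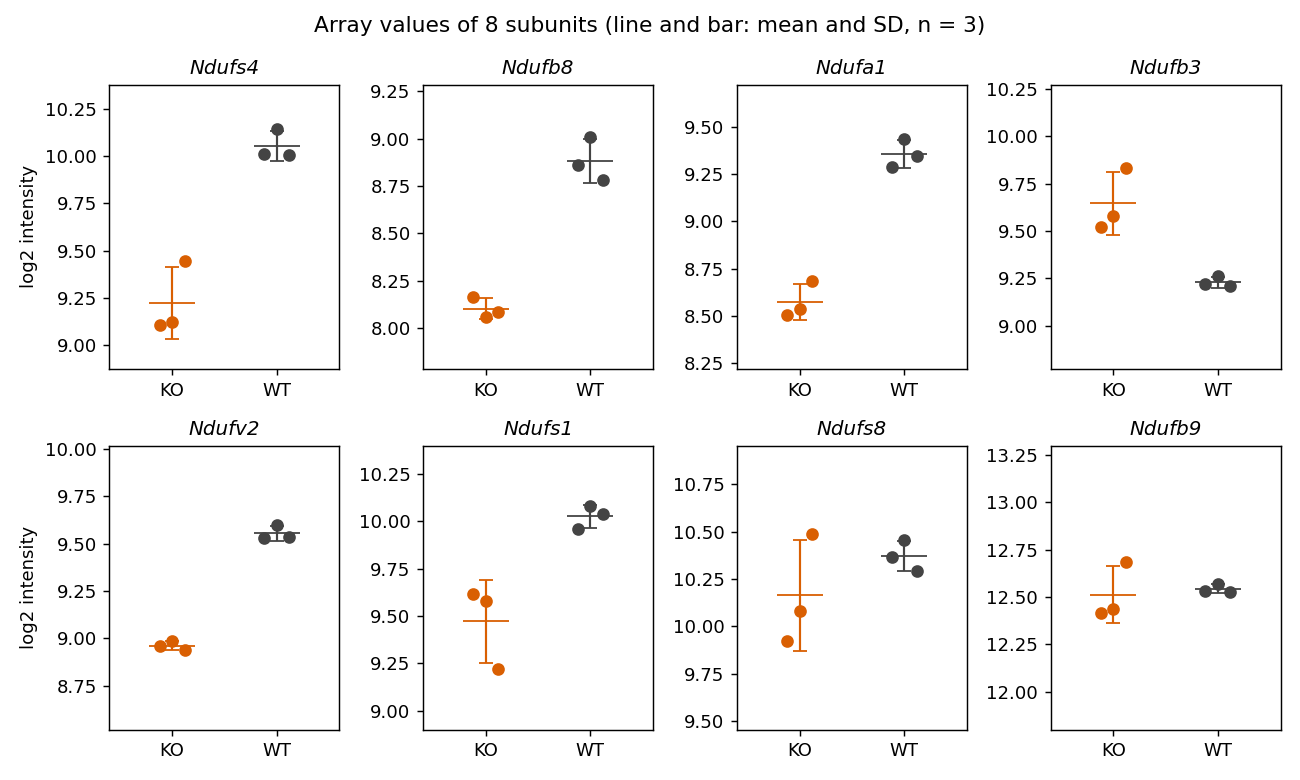
Log2 intensity of 8 members on each array (points), with the mean and SD of 3 arrays (lines and bars), knockout (KO) left of wildtype (WT), and with panels of equal span on the log2 scale. The groups are apart in Ndufs4, Ndufb8, Ndufa1, Ndufv2 and Ndufs1, apart the other way in Ndufb3, and overlap in Ndufs8 and Ndufb9.

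The promoters of these 4 genes are shown because they had the 3 largest falls and the 1 rise. Each window runs from 250 bases before to 50 bases after the start of the gene, taken from RefSeq on GRCm38.p6, and capitals mark matches to motifs of factors known to act at genes of the respiratory chain. The motifs were searched on both strands: CATGCGC for NRF1, CCGGAAG for ETS factors such as GABPA, AAGATGG for YY1 and GGGGCGG for SP1. The Ndufs4 window is chr13:114388045-114388344 on the minus strand, that of Ndufb8 chr19:44555393-44555692 on the minus strand, that of Ndufa1 chrX:37191189-37191488 on the minus strand and that of Ndufb3 chr1:58586147-58586446 on the plus strand.
Ndufs4: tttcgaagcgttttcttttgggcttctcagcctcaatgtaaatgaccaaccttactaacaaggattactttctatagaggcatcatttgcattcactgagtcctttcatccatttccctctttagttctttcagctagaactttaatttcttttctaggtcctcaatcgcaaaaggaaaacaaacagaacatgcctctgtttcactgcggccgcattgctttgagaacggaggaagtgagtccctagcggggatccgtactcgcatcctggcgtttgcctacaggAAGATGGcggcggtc
Ndufb8: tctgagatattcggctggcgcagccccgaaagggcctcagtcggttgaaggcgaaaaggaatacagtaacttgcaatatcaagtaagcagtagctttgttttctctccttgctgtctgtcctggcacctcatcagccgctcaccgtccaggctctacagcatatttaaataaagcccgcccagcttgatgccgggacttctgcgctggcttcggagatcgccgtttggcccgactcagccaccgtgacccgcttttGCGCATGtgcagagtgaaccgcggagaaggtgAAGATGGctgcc
Ndufa1: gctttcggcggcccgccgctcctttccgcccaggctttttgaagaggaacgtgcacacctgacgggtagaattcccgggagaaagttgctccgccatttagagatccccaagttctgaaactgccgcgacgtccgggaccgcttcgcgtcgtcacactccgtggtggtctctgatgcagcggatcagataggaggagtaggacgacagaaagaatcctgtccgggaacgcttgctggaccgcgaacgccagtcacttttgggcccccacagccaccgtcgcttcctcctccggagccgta
Ndufb3: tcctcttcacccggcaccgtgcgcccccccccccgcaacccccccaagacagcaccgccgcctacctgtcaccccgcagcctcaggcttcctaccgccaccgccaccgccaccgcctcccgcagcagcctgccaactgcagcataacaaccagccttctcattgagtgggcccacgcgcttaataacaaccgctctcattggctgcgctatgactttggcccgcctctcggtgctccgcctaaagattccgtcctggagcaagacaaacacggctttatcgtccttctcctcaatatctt
Ndufs4 holds a YY1 match and Ndufb8 an NRF1 match and a YY1 match, each after the start of its gene. Neither Ndufa1 nor Ndufb3 holds a match in this window. Promoters were listed for 32 of the 36 members, of which 22 fell in knockout. The NRF1 motif stood in 4 of the 32 (12.5%), in 3.91% of all 32851 promoters and in 8.48% of those of coding genes with a mean above the background probe sets. The YY1 motif stood in 7 (21.9%), in 6.34% of all promoters and in 8.94% of those brighter genes. The ETS motif stood in 4 (12.5%), in 8.86% of all promoters and in 21.7% of the brighter genes, and the SP1 motif in 9 (28.1%), in 23.2% and in 50.5%. Among the 22 that fell, 3 held NRF1, 3 ETS, 4 YY1 and 6 SP1, and 15 of the 32 held none of the motifs. These are matches of letters, not shown binding sites, and no match says only that the letters are not in the window.

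Of the 6 core subunits measured 4 fell and 2 did not pass, with a median of -0.26 and a range from -0.59 to -0.21. Of the 30 members counted as accessory 19 fell, 1 rose and 10 did not pass, with a median of -0.36 and a range from -0.83 to 0.42. These include Ndufa4, Ndufa4l2 and Ndufb4b, which belong by name only. Without them, 17 of 27 accessory subunits fell, 1 rose and 9 did not pass, with a median of -0.35. The core median was 0.10 higher than the accessory median, a difference that was not tested and that was 0.05 with chromosome medians taken off. Among the core, 5 of 6 had all knockout arrays below all wildtype arrays, and among the accessory subunits 21 of 30 had. The same held in 14.8% of all genes and in 3189 of the 11392 genes above background. The count of core subunits that fell was 4 without knockout array 3, 2 without knockout array 1, wildtype array 1 or wildtype array 2, and 1 without knockout array 2 or wildtype array 3.

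In the N module, which oxidises NADH, the core subunits Ndufv2, Ndufs1 and Ndufv1 all fell. Ndufv2, which carries an iron-sulfur cluster beside the flavin, was at 8.96, 8.98 and 8.94 in knockout and 9.53, 9.60 and 9.53 in wildtype (log2 fold change -0.59, SE 0.04, limma adjusted p = 0.000474). Of the core genes it alone passed with each array left out. Ndufs1, the largest subunit and an iron-sulfur protein, was at 9.61, 9.58 and 9.22 in knockout and 9.96, 10.08 and 10.04 in wildtype (-0.56, SE 0.11, limma adjusted p = 0.0228). Knockout array 3 lay lowest here, in contrast to most members, and the call was lost without knockout array 2 or any wildtype array (adjusted p from 0.0554 to 0.0973). Ndufv1, which binds NADH and flavin, was at 8.84, 8.82 and 8.92 in knockout and 9.09, 9.09 and 9.05 in wildtype (-0.22, SE 0.05, limma adjusted p = 0.0297). Its call was lost without knockout array 1 or 2 or any wildtype array (adjusted p from 0.0572 to 0.116).

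Of the 7 accessory subunits of the N module 3 fell, among them Ndufs4 described above. Ndufv3, a small subunit with tissue-specific isoforms, fell by 0.38 on the log2 scale. It no longer passed without knockout array 1 or 2 or wildtype array 1 or 2 (limma adjusted p from 0.0609 to 0.0791). Ndufs6, a zinc-binding subunit needed for a late step of N module assembly, was at 9.16, 9.23 and 9.24 in knockout and 9.53, 9.49 and 9.49 in wildtype (log2 fold change -0.29, limma adjusted p = 0.00774). The other accessory subunits did not pass: Ndufa6, an LYR-motif protein that holds the acyl carrier protein, at -0.21 (95% confidence interval -0.45 to 0.03), Ndufa12 at -0.17 (-0.30 to -0.04), Ndufa2 at -0.10 (-0.34 to 0.15) and Ndufa7 at -0.03 (-0.13 to 0.07). Ndufa7 had the narrowest of these intervals. Ndufa12 passed when the gene table was quantile-normalized once more (limma adjusted p = 0.0271). Ndufa12 is a paralog of the assembly factor Ndufaf2, and Ndufa2 has a thioredoxin-like fold.

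In the Q module, which hands electrons to ubiquinone, the core subunit Ndufs3 fell and Ndufs7 and Ndufs8 did not pass. Ndufs3 was at 8.73 on each knockout array and at 8.93, 9.12 and 9.04 in wildtype (log2 fold change -0.30, SE 0.06, limma adjusted p = 0.0206). Its values did not overlap, but the call was lost without any 1 knockout array or wildtype array 3 (adjusted p from 0.0666 to 0.0934). Ndufs7, which carries the last iron-sulfur cluster before the quinone, was at 9.10, 9.04 and 9.29 in knockout and 9.37, 9.45 and 9.30 in wildtype (-0.23, SE 0.08, limma adjusted p = 0.142; adjusted p = 0.0495 without knockout array 3). The groups did not overlap, though knockout array 3 nearly met wildtype array 3. Ndufs8, a ferredoxin-like subunit, was at 9.92, 10.08 and 10.49 in knockout and 10.37, 10.45 and 10.29 in wildtype (-0.21, SE 0.14, limma adjusted p = 0.51). Its knockout arrays spread widely, with knockout array 3 above every wildtype array. Ndufa5, the accessory subunit of this module, fell by 0.35 on the log2 scale (SE 0.05, limma adjusted p = 0.00875).

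Together, all 14 members of the matrix arm had a negative log2 fold change, 8 of them passing, with a median of -0.26. Of the 18 members of the membrane arm 13 fell, 1 rose and 4 did not pass, with a median of -0.40. The difference between the arms was not tested.

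In the ND1 module, where the matrix and membrane arms meet, 3 of 4 members fell. Ndufa8, which is oxidatively folded on the intermembrane-space side, was at 10.25 ± 0.03 in knockout and 10.76 ± 0.04 in wildtype (mean ± SD, n = 3 arrays each; log2 fold change -0.51, limma adjusted p = 0.000985). Ndufa9, a dehydrogenase-like protein that binds a nucleotide cofactor, was at 9.28 ± 0.08 in knockout and 9.67 ± 0.07 in wildtype (-0.39), and Ndufa13, also studied as a cell death regulator, at 9.22 ± 0.11 in knockout and 9.62 ± 0.07 in wildtype (-0.41). The Ndufa9 call was lost without knockout array 1 or wildtype array 3 (limma adjusted p = 0.0511 and 0.0543), and the Ndufa13 call without wildtype array 1 or 2 (0.0537 and 0.0562). Ndufa3 did not pass, at 0.04 (95% confidence interval -0.16 to 0.23).

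In the ND2 module 3 of 5 members fell. Beside Ndufa1, the nucleoside kinase-like subunit Ndufa10 was at 9.92 ± 0.05 in knockout and 10.39 ± 0.05 in wildtype (log2 fold change -0.48, limma adjusted p = 0.00191). Ndufc2, a membrane subunit, fell by 0.51 on the log2 scale, a call lost without knockout array 2 or wildtype array 2 or 3 (limma adjusted p from 0.0579 to 0.0689). The small membrane subunit Ndufc1 was at -0.32 (95% confidence interval -0.59 to -0.04) and passed without knockout array 3 (limma adjusted p = 0.0237). Ndufs5, another subunit folded on the intermembrane-space side, was at -0.19 (-0.31 to -0.06) and passed without wildtype array 1 (0.0411) and among genes at or above the median level alone (0.0382).

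The ND4 module had the lowest median, -0.56, and all 4 of its measured members fell. Ndufb6, a small membrane subunit, was at 9.08, 8.89 and 8.80 in knockout and 9.53, 9.75 and 9.69 in wildtype (log2 fold change -0.73, SE 0.09, limma adjusted p = 0.00389). Ndufb11, an X-linked subunit whose loss causes a developmental syndrome, was at 7.83, 7.60 and 7.95 in knockout and 8.24, 8.48 and 8.50 in wildtype (-0.61, SE 0.11, limma adjusted p = 0.0169). Both sets of values were apart. The Ndufb11 call was lost without knockout array 1 or wildtype array 2 or 3 (limma adjusted p from 0.0652 to 0.0808). Ndufb5 fell by 0.51 (limma adjusted p = 0.00602). Ndufb10, a subunit with disulfide-bonded cysteines, fell by 0.21 (SE 0.05, limma adjusted p = 0.0348). Leaving out any 1 array ended this call (adjusted p from 0.0572 to 0.121).

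The ND5 module, at the tip of the membrane arm, held members that moved in both directions: 3 fell, 1 rose and 1 did not pass. Beside Ndufb8 and Ndufb3, described above, Ndufb7, also folded on the intermembrane-space side, was at 8.30 ± 0.06 in knockout and 8.60 ± 0.07 in wildtype (log2 fold change -0.30), a call lost without knockout array 1 or 2 or wildtype array 3 (limma adjusted p from 0.0558 to 0.0794). Ndufb2 fell by 0.39, with both means within the range of the background probe sets, and its call was lost without any 1 knockout array or wildtype array 3 (limma adjusted p from 0.0713 to 0.102). Ndufb9, an LYR-motif protein that binds the acyl carrier protein, did not pass, at -0.03 (95% confidence interval -0.22 to 0.16). Ndufab1, the mitochondrial acyl carrier protein, which sits in both arms of the enzyme and also serves fatty acid and iron-sulfur synthesis, did not pass either, at -0.13 (-0.28 to 0.03).

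There are 3 members that carry the name without a settled place in the enzyme. Ndufa4, now assigned to cytochrome c oxidase, was at 10.98, 10.89 and 11.13 in knockout and 11.57, 11.61 and 11.59 in wildtype (log2 fold change -0.59, SE 0.07, limma adjusted p = 0.00282). Ndufa4l2, its hypoxia-inducible paralog, was at 6.88, 6.66 and 6.71 in knockout and 6.90, 6.50 and 6.81 in wildtype, which is background level (0.01, 95% confidence interval -0.27 to 0.29). Ndufb4b, a gene copy of Ndufb4 that the reference table lists as coding, was at 10.48, 10.53 and 10.73 in knockout and 11.33, 11.34 and 11.30 in wildtype (-0.74, SE 0.07, limma adjusted p = 0.00147). Near-identical copies can share probes, so its value may hold signal of Ndufb4. Without Ndufa4 and Ndufa4l2, 22 of 34 members fell. Without Ndufb4b, a choice made after seeing the data, 22 of 35 did.

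The members lie on 14 chromosomes, and 2 of them, Ndufa1 and Ndufb11, on X. The median log2 fold change of the 297 brighter coding genes on X was -0.21, and on the autosomes such medians ran from -0.13 to 0.07. With each chromosome's median taken off, Ndufa1 kept a log2 fold change of -0.57 (limma adjusted p = 0.00334), and Ndufb11 was at -0.40 and no longer passed (adjusted p = 0.0696). Of the 34 autosomal members 21 fell, 1 rose and 12 did not pass, with a median of -0.31.

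The 3 measured core subunits that mitochondrial DNA encodes did not pass. Their messenger RNAs are made from mitochondrial DNA by a polymerase of their own, and 3 of the 7 had a probe set naming no other gene. ND2 was at 12.60, 12.64 and 12.72 in knockout and 12.58, 12.64 and 12.70 in wildtype (log2 fold change 0.01, 95% confidence interval -0.12 to 0.14). ND3 was at 13.00, 13.01 and 13.23 in knockout and 13.02, 13.03 and 13.07 in wildtype (0.04, -0.14 to 0.21). ND6 was at 11.80, 11.59 and 11.41 in knockout and 11.68, 11.71 and 11.81 in wildtype (-0.14, -0.38 to 0.11). The groups overlapped in each.

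Some of the genes that build complex I fell as well. Of 19 assembly factors 4 fell, none rose and 15 did not pass, with a median of -0.14, and 18 had a negative log2 fold change. In 13 of the 19 all knockout arrays lay below all wildtype arrays, as in 14.8% of all genes and 3189 of 11392 genes above background. The list is dim: 3 of the 19 had both means and 5 had 1 mean in the background range. Ndufaf4, which acts early in assembly, was at 8.32 ± 0.09 in knockout and 9.07 ± 0.18 in wildtype (log2 fold change -0.74, limma adjusted p = 0.00533), and Ndufaf5, a hydroxylase of a core subunit, at 7.11 ± 0.07 in knockout, a background-level mean, and 7.81 ± 0.21 in wildtype (-0.70, limma adjusted p = 0.00904). Of 10 genes for making iron-sulfur clusters 2 fell and 8 did not pass, with a median of -0.15. The 2 that fell were the late-acting cluster carriers Isca1 (-0.35, limma adjusted p = 0.0468) and Nfu1 (-0.29, limma adjusted p = 0.0179). The shares that fell were 21.1% and 20% in these lists, beside 6.90% over all genes and 13.5% among genes above background. The difference from the subunits was not tested.

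The other respiratory complexes were lower as well: of 37 subunits of complexes II to V 27 fell, none rose and 10 did not pass, with a median of -0.44. Cox5b and Cox7b of cytochrome c oxidase had the largest falls of these (-0.77 and -0.76). Of 15 genes for mitochondrial content and import 8 fell, 1 rose and 6 did not pass, with a median of -0.22. The outer membrane channel gene Vdac1 (-0.57) and the X-linked nucleotide carrier gene Slc25a5 (-0.55) led the falls, and Tomm22, of the import receptor, rose (0.23, limma adjusted p = 0.035). The shares that fell were 73.0% and 53.3% in these lists, beside 6.90% over all genes and 13.5% among genes above background.

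Among 13 regulators of mitochondrial biogenesis 2 fell (15.4%) and 11 did not pass, beside 6.90% lower over all genes and 13.5% among genes above background. Ppargc1a, the coactivator that raises transcription of respiratory chain genes, was at 9.66, 9.76 and 9.93 in knockout and 11.23, 11.36 and 11.34 in wildtype (log2 fold change -1.53, SE 0.08, limma adjusted p = 0.000122). Tfb1m, a methyltransferase of mitochondrial ribosomal RNA, was at 7.92 ± 0.07 in knockout and 8.58 ± 0.21 in wildtype (-0.66, limma adjusted p = 0.0121). Of the factors named with the motifs, Nrf1, Gabpa and Yy1 are in this list and did not pass: Nrf1 was at -0.09 (95% confidence interval -0.23 to 0.06), Gabpa at -0.18 (-0.44 to 0.08) and Yy1 at 0.01 (-0.16 to 0.18). Their part in the result on the subunits was not tested.

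**Figure D4:**
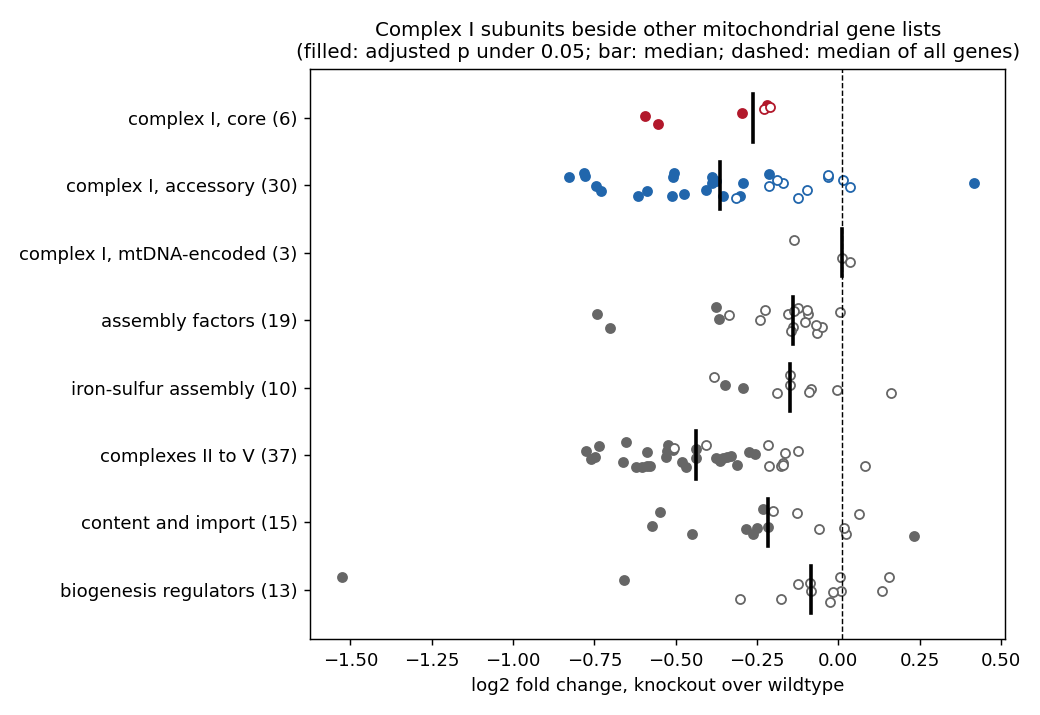
Log2 fold change, knockout over wildtype, of complex I core and accessory subunits and of 6 other mitochondrial lists (number of genes measured in brackets); filled points passed, black bars are list medians and the dashed line is the median of all genes. Subunits of complex I and of complexes II to V lie mostly left of 0, the 3 mitochondrially encoded subunits lie near 0, and the single point near -1.5 is Ppargc1a.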

How the data were processed

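Total RNA of 6 podocyte cultures was hybridised to Affymetrix arrays. The authors deposited log2 intensities per probe set, and the submitters' processing notes name affy 1.44.0 and RMA, a method that corrects background, quantile-normalizes arrays and summarises probes by median polish. The sources used here name no filter. The scanner's own output was not analysed here, and so other background corrections were not tried.

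Of 72688 probe sets, 31258 named 1 gene in the platform annotation, 1492 several and 39938 none here. Symbols were updated through a RefSeq table of GRCm38.p6, used for names and chromosomes. The brightest probe set on average stood for each of 442 genes that had more than 1, which left 30701 genes. The 23 background probe sets had means of 2.33 to 7.78, called the background range. Means no higher than this range's top were found for 19309 genes.

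limma 3.58.1 (R 4.3.3; lmFit and eBayes with no covariate and no filter, two-sided) set the 3 knockout arrays against the 3 wildtype arrays, with Benjamini-Hochberg adjustment over all genes at 0.05. The script was tested on simulated data. The number of arrays limits the precision, and p-values measure only the spread between these arrays. Alternatives were a second quantile normalization, a filter on dim genes, the replicate block, trended robust eBayes, chromosome medians taken off, the mean of probe sets, genes with identical values left out, a stricter threshold, other memberships, and leaving out each array. The members, lists and tests were chosen with earlier results of these data known. All members are named, with array values for the core, the largest changes, the X-linked members and those that belong by name only. Of the other lists, the 2 largest changes that passed in each direction are named. Xist, Uty, Kdm5d, Eif2s3y, Nphs1, Wt1, Cd2ap, Nrf1, Gabpa, Yy1, ND2, ND3 and ND6 were named beyond this rule. Figures were drawn with matplotlib 3.10.9.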

Additional observations from a re-analysis of the deposited data

How the results depend on the processing

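At an adjusted p under 0.01, 1948 genes were called, with 13 members lower (1 core and 12 accessory), 0 higher (Ndufb3 was the 1 at 0.05, in limma) and 24 of the other mitochondrial lists. With each array left out in turn, the calls over all genes ran from 2079 to 3388, members lower from 14 to 22, members higher from 0 to 1, core subunits lower from 1 to 4, accessory subunits lower from 13 to 18 and the other lists from 27 to 40, against 43 on 6 arrays. The members' median ran from -0.38 to -0.32 and core minus accessory from 0.07 to 0.10, and that difference was 0.0469 with chromosome medians taken off. Leaving out an array makes the fit smaller, and the cause of these changes was not tested otherwise. Of 503 values of single members under 14 alternatives, 9 had the opposite sign, all in Ndufa2, Ndufa3, Ndufa4l2, Ndufa7 and Ndufb9, which did not pass. Deviations of knockout and wildtype arrays with the same number had correlations of 0.35, 0.28 and 0.04 over genes. For arrays with different numbers the correlations ran from -0.34 to 0.05. Whether the numbers mark a shared batch is not given, and the main fit did not take them as pairs. With the replicate block 3765 genes were called and 21 members were lower, 3 of them core, without Ndufb10 and Ndufv1. The dim range of the background probe sets limits what can be read of Ndufb2 and Ndufa4l2.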

Other observations

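Several probe sets name a complex I gene together with another gene and entered no comparison. The probe set of Ndufb4, a distal membrane subunit, with Gm3244 was at 8.05, 8.17 and 8.36 in knockout and 8.57, 8.83 and 8.69 in wildtype, a difference of -0.51. A probe set of Gm3244 alone averaged 6.69 ± 0.10 in knockout and 7.09 ± 0.29 in wildtype (SD, n = 3 each), a difference of -0.41 between means at background level. The probe set of Ndufa11, a membrane subunit of the ND2 module, with its pseudogene Ndufa11b was at 8.04, 8.11 and 8.25 in knockout and 8.44, 8.29 and 8.29 in wildtype, a difference of -0.21. In the shared probe sets of Ndufb4 and of Ndufa11, all knockout arrays lay below all wildtype arrays. The same held in 14.8% of all genes and in 3189 of the 11392 genes above background. Of the shared probe sets of mitochondrially encoded subunits, ND1 with mt-Rnr2 averaged 13.38 in knockout and 13.34 in wildtype, ND4 with ND4L 13.78 in knockout and 13.76 in wildtype, and ND5 with CYTB 13.72 in knockout and 13.66 in wildtype. None of these was tested.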
